A study of Mus musculus with 12 samples.

Results

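The mitochondrial ribosomal protein genes described here were the rows of the expression table whose symbol was Mrpl or Mrps, a number and at most 1 further letter, with at least 1 FPKM (fragments scaled to transcript length and to sequencing depth) in at least 2 of the 12 libraries. There were 78 such genes among 54537 rows of the table, and every row with a matching name passed the level filter. By symbol, 49 belonged to the large subunit (Mrpl) and 29 to the small subunit (Mrps), although the proteins of Mrps18a and Mrps30 are placed in the large subunit in structures of the particle. All 78 were annotated as protein coding in GENCODE M21, and they lay on 17 chromosomes, with 11 on chromosome 11 and 2 on chromosome 8.

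Poly(A) RNA of mouse embryonic stem (ES) cells and of embryoid bodies grown from them was sequenced in a study of lines that lack selected long noncoding RNAs. Cells were WT or of the line labelled WT+1343KO-a14, called 1343KO below, which is 1 clone; the labels do not say what the number or the prefix WT+ in this name stands for. Day 0 cells of both lines were kept in serum with leukemia inhibitory factor (LIF), and at days 8 and 16 both lines were embryoid bodies, floating aggregates that differentiate without LIF in low-adherent plates. Each of the 6 groups had 2 libraries, and no source says whether the pair came from independent cultures. The p-values below therefore speak of the spread between libraries alone, which may be technical.

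Mitochondria carry their own ribosome, which makes the few proteins encoded by mitochondrial DNA, all of them membrane subunits of the respiratory chain and of ATP synthase. Its RNAs come from mitochondrial DNA, but all of its proteins are encoded in the nucleus, made in the cytosol and imported. Some of them have bacterial relatives, such as uS5m or bL20m, and others are specific to mitochondria. ES cells make strong use of glycolysis, and respiration is often described as gaining weight as they differentiate.

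The title of the series names SNORA73, and Snhg3, the host gene of the mouse copies Snora73a and Snora73b, reached 61.1 and 47 FPKM in WT ES cells, 13.7 and 30.2 at day 8 and 16.7 and 8.31 at day 16, while no 1343KO library exceeded 1.57 FPKM. The estimated depth was 4820000 to 7920000 fragments per library, and 12909 to 14069 genes reached 1 FPKM. Log values of replicate libraries correlated at 0.97 to 0.975 across genes. Summed FPKM of 6 pluripotency markers (Pou5f1, Nanog, Zfp42, Esrrb, Tdgf1, Dppa4) went from 1720 and 1730 in WT at day 0 to 76.7 and 80.6 at day 8 and 51.4 and 46.5 at day 16, and in 1343KO from 1890 and 1810 to 1110 and 1090 and then 956 and 957. The 6 yolk sac endoderm markers summed to 71.7 and 87 in WT at day 0, to 2140 and 2190 at day 8 and to 11300 in both libraries at day 16, but to at most 135 in any 1343KO library. The 5 fibroblast markers summed to 3420 and 3570 in WT at day 16 and to 44.5 and 40.8 in 1343KO, and the 5 macrophage markers to 139 and 140 in WT and 8.67 and 8.55 in 1343KO. Sums of other lists differed less at day 16. The 5 cardiomyocyte markers summed to 24.2 and 38.7 in WT and 37.6 and 39.5 in 1343KO. For the 5 neural markers the sums were 15.9 and 16 against 18.5 and 20.5, and for the 5 trophoblast markers 62.8 and 68.5 against 45.5 and 43.3. Hand1 made up most of the trophoblast sum, at 58.9 and 65.7 FPKM in WT against 19 and 21.6 in 1343KO. The rest of that list was higher in 1343KO. Prl2c2 was at 0 in both WT libraries against 8.21 and 7.83, and Prl3d1 at 0 in both against 7.55 and 5.67. Tpbpa was at 1.03 and 1.14 against 6.45 and 4.62, and Plac1 at 2.89 and 1.61 against 4.25 and 3.51. None of the pluripotency, endoderm or fibroblast markers was listed at 0 in any library. Of the cardiomyocyte, neural and trophoblast lists, Nppa, Tnnt2, Neurog2, Prl2c2, Tpbpa and Prl3d1 were each at 0 in at least 1 library. The macrophage gene C1qa was at 0 in 4 libraries and Adgre1 in 1. Marker levels thus differed between WT and 1343KO embryoid bodies, and their part in the results below was not tested. In such bulk samples fewer cells of a type and less RNA per cell cannot be told apart.

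The upstream sequences of 5 members are shown because their RNA levels, given further on, went in different directions: Mrps18a, Mrps18b and Mrps18c are 3 relatives of the bacterial protein S18 of which 1 fell in WT, Mrpl14 rose and Mrpl20 fell. They are from RefSeq on GRCm38.p6, written 5′ to 3′ along the gene's strand, and end before the start of the gene as RefSeq or the deposited table gives it, whichever is further upstream. Capitals mark matches to the motifs searched. The first motif was TGCGCA, the core of the site bound by nuclear respiratory factor 1 (NRF1). The next was CCGGAAG, a form of the site of ETS factors such as GABPA. For YY1 the search used AAGATGG as the core of its site. The E-box that MYC and its relatives bind was searched for as CACGTG, and the CCAAT box of NF-Y as ATTGGCT in the same way. Both strands were searched, and negative positions count back from the RefSeq start.
Mrps18a, chr17:46110754-46110985, plus strand: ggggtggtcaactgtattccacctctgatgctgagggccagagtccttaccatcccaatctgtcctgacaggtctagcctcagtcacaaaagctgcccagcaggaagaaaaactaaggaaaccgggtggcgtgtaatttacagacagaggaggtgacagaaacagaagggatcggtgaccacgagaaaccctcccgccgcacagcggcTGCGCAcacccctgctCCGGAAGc
Mrps18b, chr17:35916441-35916690, minus strand: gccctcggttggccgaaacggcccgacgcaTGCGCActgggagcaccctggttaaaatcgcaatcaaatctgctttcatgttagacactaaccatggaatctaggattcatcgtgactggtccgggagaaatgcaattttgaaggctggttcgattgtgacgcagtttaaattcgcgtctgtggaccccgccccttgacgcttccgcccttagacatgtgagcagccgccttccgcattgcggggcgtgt
Mrps18c, chr5:100798509-100798626, plus strand: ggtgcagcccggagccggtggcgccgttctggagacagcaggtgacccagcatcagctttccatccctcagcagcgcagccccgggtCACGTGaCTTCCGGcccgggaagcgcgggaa
Mrpl14, chr17:45686099-45686321, plus strand: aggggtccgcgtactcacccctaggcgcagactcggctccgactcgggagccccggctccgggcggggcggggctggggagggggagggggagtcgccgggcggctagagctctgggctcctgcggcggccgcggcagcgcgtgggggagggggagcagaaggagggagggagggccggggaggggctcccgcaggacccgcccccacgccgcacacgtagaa
Mrpl20, chr4:155802628-155802877, plus strand: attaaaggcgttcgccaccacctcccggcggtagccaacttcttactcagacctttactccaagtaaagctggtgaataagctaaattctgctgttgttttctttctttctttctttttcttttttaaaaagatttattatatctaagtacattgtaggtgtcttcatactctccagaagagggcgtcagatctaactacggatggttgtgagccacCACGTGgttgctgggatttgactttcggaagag

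In the stretches shown, Mrps18a held the NRF1 core at -42 and the ETS letters at -26, and Mrps18b the NRF1 core at -220. Mrps18c held an E-box at -163 next to the ETS letters at -156, and Mrpl20 an E-box at -33. None of the 5 motifs was found in the stretch shown for Mrpl14. Within 50 bases after the RefSeq start, outside the stretches shown, Mrps18b also held the NRF1 core at 31 and the ETS letters at 43. Mrps18a held the YY1 core there at 11. RefSeq windows of 300 bases, 250 before and 50 after the start, were matched for 69 of the 78 members. The ETS letters were in 36.2% of these, against 9.12% of all 27025 promoters and 17.4% of the promoters of tested genes. The NRF1 core was in 30.4% (8.06% of all promoters, 13.9% of those of tested genes) and the YY1 core in 18.8% (6.48% and 7.04%). The E-box was in 7.25% (7.24% and 10.2%) and the CCAAT box in 5.8% (8.21% and 11.3%). Related gene groups held the same letters: the ETS letters were in 38.5% of the promoters of 65 cytosolic ribosomal protein genes and 23.1% of those of 65 nuclear OXPHOS (oxidative phosphorylation) genes. The NRF1 core was in 18.5% and 26.2% of them, and the YY1 core in 15.4% and 13.8%. No motif contains another, though matches may overlap at their ends, and a match describes letters only. Members with the NRF1 core had a median WT log2 change from day 0 to day 16 of -0.72 (21 genes), and those without it -0.85 (48 genes). For the ETS letters the medians were -0.69 (25 genes) and -0.85 (44 genes). The order was the other way for the YY1 core, at -0.92 with (13 genes) and -0.73 without (56 genes), for the E-box, at -1.22 (5 genes) and -0.73 (64 genes), and for the CCAAT box, at -0.79 (4 genes) and -0.74 (65 genes). None of these differences was tested. A protein-coding gene started on the other strand within 500 bases of the start for 25 members (32.1%), against 12.7% of 13681 tested protein-coding genes. Among these pairs were Mrpl46 with Mrps11, Mrps12 with Sars2, the mitochondrial seryl-tRNA synthetase, and Mrpl36 with Ndufs6, a subunit of respiratory complex I.

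In WT, RNA of the mitochondrial ribosomal proteins fell as a group when ES cells became embryoid bodies, and most of the fall was seen by day 8. Summed over the 78 genes, the WT libraries held 3266 and 3154 FPKM at day 0, 1903 and 2030 at day 8, and 1683 and 1861 at day 16. No day 8 or day 16 library reached a day 0 library, and the mean at day 16 was 55.2% of that at day 0. In 1343KO the same sum was 3107 and 3272 at day 0, 2675 and 3029 at day 8 and 2764 and 2843 at day 16. The 1343KO mean at day 16 was 87.9% of its day 0 mean, and all its day 8 and day 16 libraries lay above all WT libraries of those days. These sums were not rescaled between libraries. Median-of-ratios scaling, an alternative used further on, divides the 1343KO libraries by 0.987 and 0.989 at day 0 and by 1.09 at day 16. As a share of all FPKM, the members held 0.673% and 0.647% in 1343KO at day 0 and 0.552% and 0.571% at day 16. In WT these shares were 0.68% and 0.656%, then 0.366% and 0.415%. In WT at day 16 the large subunit sum was 53.5% and the small subunit sum 58.4% of day 0, and the difference between the subunits was not tested.

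**Figure D1:**
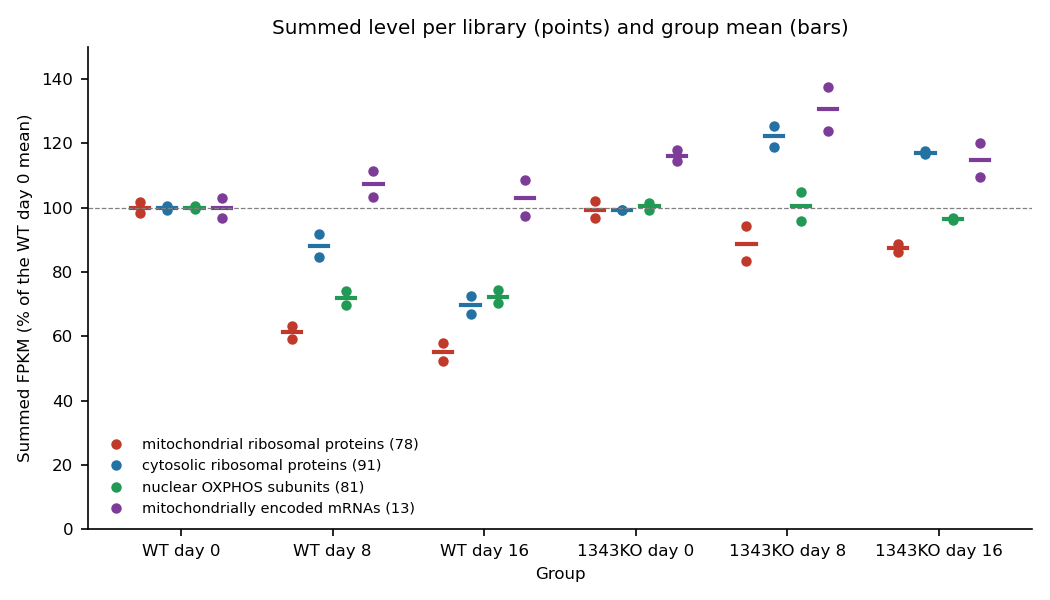
Summed FPKM of 4 gene groups in each library (points) and as a group mean (bars), as a percentage of the WT day 0 mean, by line and day. The sums were not rescaled between libraries. The mitochondrial ribosomal proteins (red) had WT means of 61.2% at day 8 and 55.2% at day 16, below those of the other 3 groups, while their 1343KO libraries stayed above every WT library of days 8 and 16.

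The 78 genes were not present at 1 level, although the assembled particle holds most of its proteins in equal number. FPKM is a level per transcript length, so genes can be ranked on it. In WT ES cells the median member was at 35.9 FPKM, and the range ran 13.7-fold from Mrpl19 at 9.2 to Mrpl17 at 126. Mrpl17 (bL17m) had the highest mean over all libraries, with 126 and 127 FPKM in WT at day 0. Mrps21 (bS21m, a small subunit protein with a bacterial relative) came next but varied between replicates, at 87.5 and 46 FPKM in WT at day 0. Mrpl52, Mrpl42, Mrpl15, Mrpl24, Mrpl34, Mrpl21, Mrpl33 and Mrpl20 made up the rest of the top 10 by that mean. The order was not the same in every group: Mrps21 was highest in WT at day 8 and day 16, and Mrpl30 was second in WT at day 16 with 56.9 and 53.5 FPKM. In WT at day 16 the range had widened to 20.3-fold, from Mrpl19 at 3.31 to Mrps21 at 67.2 FPKM, with a median of 19.3, and in 1343KO at day 16 it was 12.5-fold with a median of 32.3.

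In WT at day 8 against day 0, 51 of 78 members were lower and 2 were higher at an adjusted p under 0.05 in limma's test on log2(FPKM + 1), where 24.5% of all tested genes were lower, 26.8% higher and 51.3% either. The largest falls were those of Mrpl20 (-1.65), Mrps18b (-1.64), Mrps25 (-1.39), Mrps12 (-1.37), Mrpl21 (-1.36), Mrpl35 (-1.30), Mrps22 (-1.27) and Mrpl12 (-1.23), of which Mrpl35 lost its call in 1 of the alternatives run. The median log2 change of the members was -0.72, and that of all genes was 0.00. By day 16, 57 members were lower than at day 0 and 2 higher (28.5% of tested genes lower, 32.7% higher, 61.2% either), with a median of -0.85 against 0.02 for all genes. When genes below a mean of 5 FPKM were dropped, which removes no member, 39.3% of the remaining genes were lower at day 16. On the log2(FPKM + 1) scale, which makes low genes appear to change less, 32 members fell by at least 2-fold and 7 by at least 3-fold. For 68 members both WT day 16 libraries lay below both day 0 libraries. The shares of all tested genes that met these fold thresholds or this separation were not counted. Of the large subunit 36 of 49 genes and of the small subunit 21 of 29 fell. Leaving out the 17 members that share at least 10% of their exonic bases with another gene, 44 of 61 fell and none rose.

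**Figure D2:**
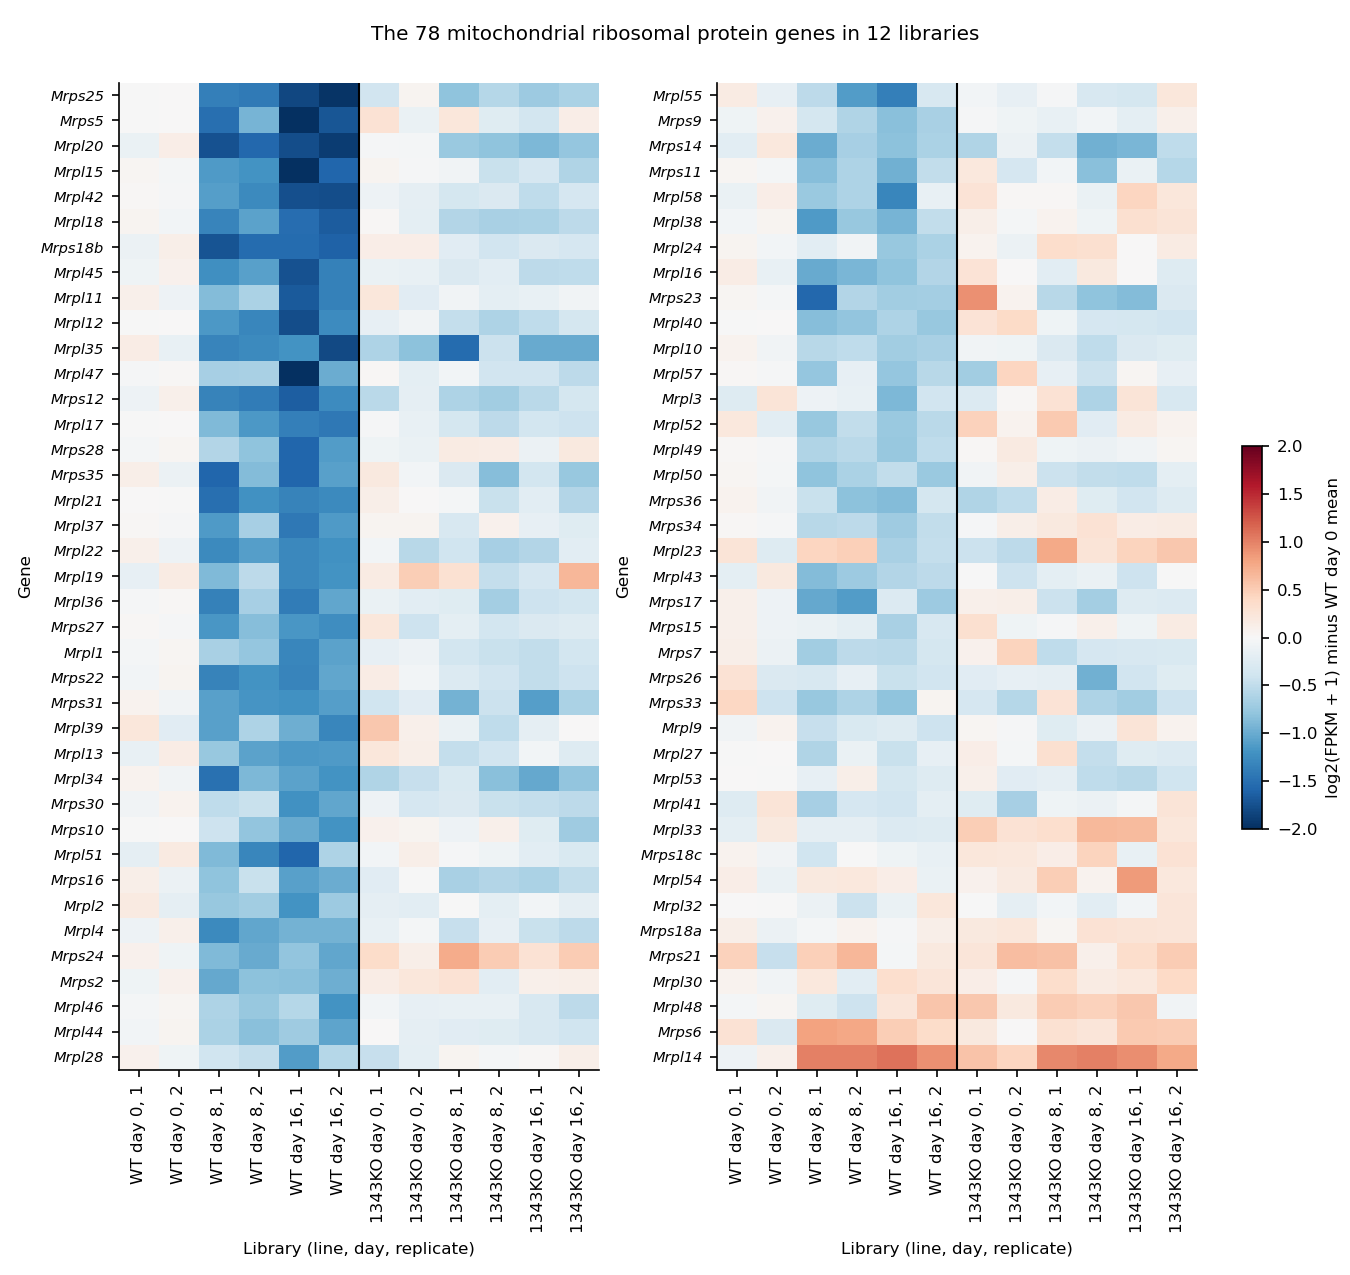
log2(FPKM + 1) of each of the 78 genes in each of the 12 libraries, minus the gene's WT day 0 mean (colours end at 2 in either direction), with genes ordered by their WT change from day 0 to day 16. WT day 8 and day 16 columns are blue for most genes, with Mrpl14 and Mrps6 at the red end, and the 1343KO columns of the same days are paler.

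Mrps25, a small subunit protein specific to mitochondria, fell furthest, from 22.5 and 22.9 FPKM in WT at day 0 to 8.23 and 7.91 at day 8 and 5.73 and 5.08 at day 16. Its 3 groups did not overlap, and its log2 change to day 16 was -1.89 ± 0.16 (SE), adjusted p = 5.2e-06 in limma. Mrps25 shares 69.8% of its exonic bases with Nr2c2, a nuclear receptor gene on the other strand, which was at 5.01 and 5.28 FPKM at day 0 and 8.75 and 7.59 at day 16. Whether the counting used strand is not given, so reads of such pairs cannot be told apart.

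Mrps5 (uS5m), a core protein of the small subunit, went from 64.2 and 65.6 FPKM to 22.1 and 33.7 and then 15.4 and 19.1 (-1.86 ± 0.25 to day 16, adjusted p = 0.000136). Mrpl20 (bL20m), which binds the large ribosomal RNA, went from 76.1 and 91.8 to 24.4 and 27.5 and then 23.7 and 21.6 (-1.84 ± 0.11, adjusted p = 4.88e-07). Mrpl15 (uL15m) went from 105 and 98.5 to 46 and 43.9 and then 23.4 and 33.3 (-1.83 ± 0.17, adjusted p = 1.12e-05). In all 3 genes each later WT library was below each day 0 library.

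Mrpl42, from 109 and 105 to 30.8 and 30.5 FPKM (-1.77 ± 0.08), Mrpl18 (-1.59 ± 0.11), Mrps18b (-1.58 ± 0.10) and Mrpl45 (-1.55 ± 0.13), the protein at the exit of the tunnel that links the ribosome to the inner membrane, completed the 8 largest falls to day 16. Mrpl18 shares 10.1% of its exonic bases with Tcp1 on the other strand, Mrpl12 13.1% with Gm16755 and Mrpl10 14.1% with Gm11574. Mrpl12 (bL12m), which forms the stalk that recruits translation factors, fell from 68.2 and 69.1 to 19.3 and 28.2 FPKM (-1.52 ± 0.15, adjusted p = 1.94e-05). Mrpl10 (uL10m), the base on which that stalk sits, fell less, from 46.3 and 41.5 to 26.6 and 27.6 (-0.67 ± 0.09, adjusted p = 0.000157). Mrps12 (uS12m), a protein of the decoding centre, fell from 49.4 and 56.7 to 16.2 and 21.6 (-1.45 ± 0.16, adjusted p = 3.25e-05). The WT calls named in these paragraphs held under each of the alternatives run, among them the omission of any 1 library.

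Between days 8 and 16 WT embryoid bodies changed less: 12 members were lower and 2 higher (13.5% of tested genes lower, 14.1% higher, 27.6% either), and the median change was -0.13. Without the WT day 16 replicate 1 library 8 were called, as were 8 without the WT day 8 replicate 2 library. Only Mrpl23, Mrps30, Mrpl42 and Mrpl24 kept their calls under all alternatives run. Mrpl23 (uL23m), which lies at the exit of the protein tunnel, was at 39.7 and 41 FPKM at day 8 and 18.3 and 20.7 at day 16 (-1.01 ± 0.19, adjusted p = 0.00371). Its day 0 libraries, at 35.2 and 24.1, lay between those of the later days. The pseudogene Mrpl23-ps1, with which it may share reads, was listed at 13.7 and 14.7 at day 8 and 5.13 and 7.15 at day 16. Mrps30 went from 11.6 and 12.1 to 6.71 and 7.69 (-0.65 ± 0.13, adjusted p = 0.00467). The other large falls were those of Mrpl11 (-0.77), Mrpl15 (-0.67), Mrps28 (-0.65) and Mrpl42 (-0.58). The higher calls were Mrpl48, at 7.73 and 6.76 FPKM at day 8 and 11.3 and 14.2 at day 16 (0.73 ± 0.21), and Mrps17, at 25.5 and 23.8 and then 43.2 and 31.3 (0.56 ± 0.15). Both were lost without either WT day 8 library, and without WT day 16 replicate 2 for Mrpl48 or replicate 1 for Mrps17.

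Mrpl14 (uL14m), a large subunit protein at the face that meets the small subunit, rose where most members fell. WT libraries held 18.5 and 21.4 FPKM at day 0, 41.2 and 41.1 at day 8 and 43.4 and 38.4 at day 16, so that all later libraries lay above both day 0 libraries. Its log2 change was 1.01 at day 8 and 1.00 at day 16 (± 0.10 each, adjusted p = 3.87e-05 and 2.66e-05). It shares 11.2% of its exonic bases with Tmem63b on the other strand, a membrane protein gene at 15.4 and 16.1 FPKM at day 0, 31.5 and 29.6 at day 8 and 20.7 and 20.3 at day 16. The part of that overlap in the level of Mrpl14 was not tested.

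Mrps6 (bS6m), a small subunit protein, was higher at day 8, with 35.5 and 34.5 FPKM against 24.3 and 16.1 at day 0 (0.79 ± 0.16, adjusted p = 0.00255). At day 16 it was at 28.3 and 25.7 FPKM, and a call there (0.43 ± 0.16, adjusted p = 0.0426) was lost in 13 of the alternatives run, among them the omission of WT day 0 replicate 2, of either WT day 16 library, of any 1 of the 1343KO libraries or of either WT day 8 library. It shares 10.4% of its exonic bases with Slc5a3, an inositol transporter gene on the same strand, which was at 1.21 and 1.15 FPKM at day 0 and 7.14 and 6.95 at day 8. A further 19.9% is shared with the gene model Gm49711.

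Of the 3 relatives of S18 in the mitochondrial ribosome, Mrps18b fell and the other two were not called in WT at day 8 or 16. Mrps18b was at 54.1 and 63.8 FPKM in WT at day 0, 17 and 19.5 at day 8 and 19.5 and 18.4 at day 16, a drop seen in full at day 8 (-1.64 ± 0.10, adjusted p = 1.81e-06). Mrps18a was at 33.3 and 28.2, then 29.8 and 32.3, then 30.3 and 33.3 (0.05 ± 0.11 to day 16). Mrps18c, which takes the place that S18 has in bacteria, was at 43.8 and 40, then 31.4 and 41.6, then 39.5 and 37.7 (-0.11 ± 0.17). The groups of Mrps18a overlapped at every day, and the difference between these paralogs was not itself tested. Mrps18b shares 30.5% of its exonic bases with Gm16279 on the other strand, listed at 1.31 FPKM or less in every library, and Mrps18c shares 23.2% with Gm43511 on its own strand, listed at 0.68 or less.

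Other members with little WT change to day 16 were Mrpl54 (0.00 ± 0.21), Mrpl32 (0.05 ± 0.16) and Mrps21 (0.07 ± 0.27), and the size of their standard errors leaves changes of moderate size undecided. Mrps36, whose product is also known as a part of the oxoglutarate dehydrogenase complex, went from 36.3 and 33 FPKM to 18.6 and 26.9 (-0.61 ± 0.19, adjusted p = 0.0217). That call was lost without the WT day 0 replicate 1 library (and without WT day 16 replicate 1). Mrps36 also has 3 pseudogenes in the table, of which the most abundant was listed at 0.814 to 9.73 FPKM. Mrpl58, a relative of release factors that is built into the large subunit, was at 30.6 and 37.1 at day 0 and 13.1 and 30.4 at day 16, with replicates too far apart for a call (-0.72 ± 0.30, adjusted p = 0.0614).

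**Figure D3:**
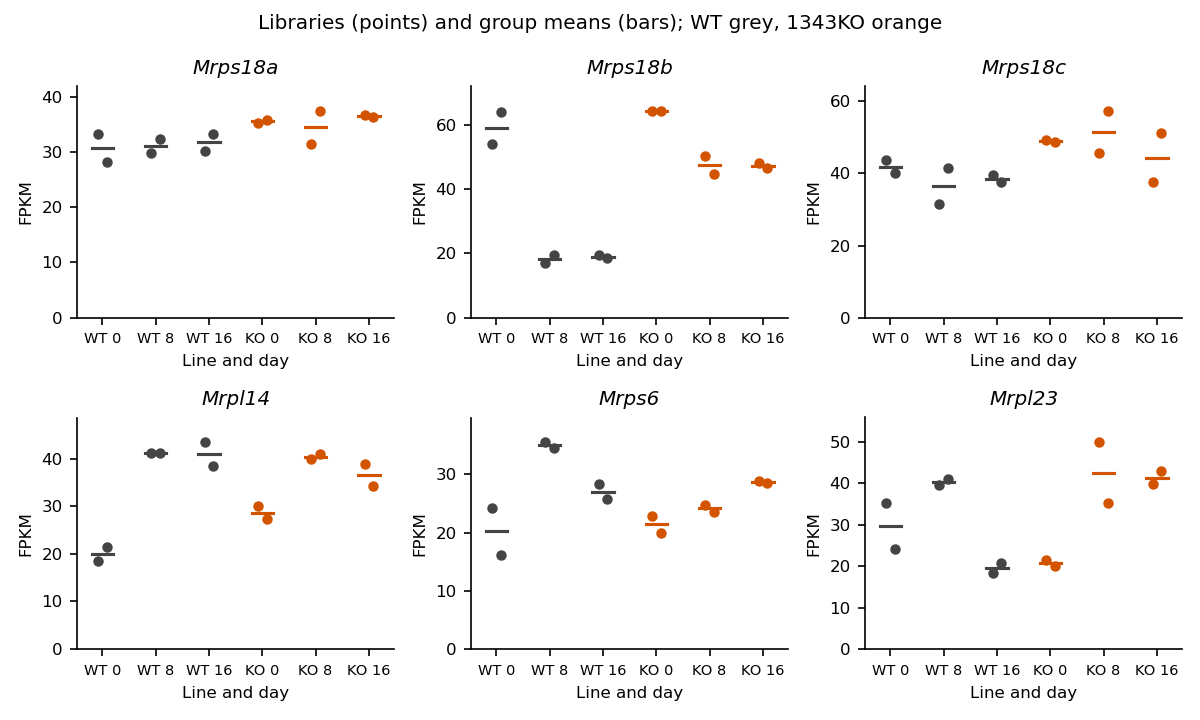
FPKM of 6 members in each library (points) with group means (bars), WT in grey and 1343KO in orange, by day; each axis starts at 0. Mrps18b was between 17 and 19.5 FPKM in the later WT libraries and between 44.7 and 50.1 in the later 1343KO libraries, and Mrpl14 went from 18.5 and 21.4 FPKM to between 38.4 and 43.4 in WT.

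In ES cells the lines differed little in these genes. At day 0, 1 of 78 members was higher in 1343KO than in WT and none was lower (1.59% and 2.12% of tested genes, 3.71% either). Of the members, 7 reached an unadjusted p under 0.05 in limma, and the share of all tested genes that did so was not counted. The median log2 difference was -0.03. The 1 call was Mrpl14, with 30 and 27.2 FPKM in 1343KO against 18.5 and 21.4 in WT (0.50 ± 0.10, adjusted p = 0.0347). It was lost without any 1 of the 4 day 0 libraries or of the 4 day 8 libraries, when the day 0 libraries were fitted alone (adjusted p = 0.239), with no filter and with a replicate block. Both members on chromosome 8 were lower in 1343KO at day 0 without a call: Mrpl34 at 58 and 64.1 FPKM against 93.3 and 83.7 (-0.53 ± 0.21, adjusted p = 0.238) and Mrps31 at 29.7 and 33.7 against 41.8 and 37.6 (-0.31 ± 0.19, adjusted p = 0.461). In neither gene did the libraries of the 2 lines overlap.

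In embryoid bodies the lines came apart. At day 8, 42 members were higher in 1343KO and 1 was lower (23.3% of tested genes higher, 19.6% lower, 42.8% either), with a median difference of 0.54 against 0.06 for all genes. At day 16, 49 were higher and none lower (28.5% and 24.1%, 52.6% either), with a median of 0.66 against 0.07. For 62 members both 1343KO libraries lay above both WT libraries, and the share of all tested genes with such a separation was not counted. Of the genes left above a mean of 5 FPKM, 39.1% were higher at day 16. Rescaling to TPM (values scaled to the same total in each library) moved the median of all genes at day 8 from 0.06 to -0.09, the split of all genes to 17.4% higher and 25% lower, and the members to 27 higher and 2 lower with a median of 0.36. Of the large subunit 33 of 49 genes and of the small subunit 16 of 29 were higher at day 16.

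Mrps5 had the largest difference at day 16, with 50.3 and 70.9 FPKM in 1343KO and 15.4 and 19.1 in WT (1.74 ± 0.25, adjusted p = 0.00029). Mrpl11 (uL11m), part of the base of the stalk, was at 14.8 and 15.7 against 4.43 and 5.82 (1.42 ± 0.18, adjusted p = 0.000143). Mrps28 (bS1m) was at 36.5 and 46 against 12.6 and 17.9 (1.39 ± 0.16, adjusted p = 7.2e-05). In these 3 genes the lines did not overlap at day 16.

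Mrps24 (uS3m), which lines the entry of the messenger RNA, had the largest difference at day 8, with 61.2 and 52 FPKM in 1343KO and 19.2 and 17.6 in WT (1.57 ± 0.14, adjusted p = 2.43e-05). At day 16 it was at 44.4 and 51.7 against 20.6 and 17.1. It shares 15.4% of its exonic bases with Urgcp on the same strand, which at day 8 was at 9.43 and 8.01 FPKM in 1343KO and 4.6 and 3.65 in WT, in the same direction. Mrps18b was at 50.1 and 44.7 against 17 and 19.5 at day 8 (1.33 ± 0.10, adjusted p = 1.18e-05) and at 48 and 46.4 against 19.5 and 18.4 at day 16. Mrps5 (1.22), Mrpl21 (1.11), Mrpl51 (1.04), Mrps2 (0.96), Mrpl16 (0.95) and Mrpl38 (0.95) followed at day 8, of which Mrpl51 lost its call without 1343KO day 8 replicate 1 and without WT day 8 replicate 2.

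Mrpl15 (1.36 ± 0.17), Mrpl42 (1.35 ± 0.08), Mrps25 (1.21 ± 0.16), Mrpl12 (1.09 ± 0.15) and Mrpl17 (1.00 ± 0.10) were also higher in 1343KO at day 16. Mrpl19 (1.39 ± 0.35, adjusted p = 0.00744), the least abundant member in WT, which shares 36% of its exonic bases with Gcfc2 on the other strand, lost its call when the day 16 libraries were fitted alone (adjusted p = 0.0566) and without the 1343KO day 16 replicate 2 library. The single lower call at day 8 was Mrps6, at 24.8 and 23.5 FPKM in 1343KO against 35.5 and 34.5 in WT (-0.52 ± 0.16, adjusted p = 0.0264), which was lost without any 1 of the 4 day 8 libraries. Under all alternatives run, 34 of the 49 calls at day 16 and 22 of the 43 at day 8 held.

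Within the 1343KO line the change over time was small. At day 8, 13 members were lower and 3 higher than at day 0 (8.51% of tested genes lower, 15% higher, 23.5% either), with a median change of -0.16. At day 16, 13 were lower and 2 higher (8.6% and 18.2%, 26.8% either), with a median of -0.20 against 0.11 for all genes. After median-of-ratios scaling, which moved the median of all genes from 0.11 to 0.00, the day 16 count became 26 lower and 1 higher, with 13.2% of all genes lower and 13.9% higher. The same scaling gave 16 lower and 2 higher members at day 8, with 11.3% of all genes lower and 12.5% higher, and TPM scaling the same counts of members, with 10.9% and 12.5%. Leaving out 1 library moved these counts as well. At day 8, 10 members were called without 1343KO day 0 replicate 1, 7 without day 0 replicate 2, 9 without day 8 replicate 1 and 6 without day 8 replicate 2. At day 16, 5 were called without 1343KO day 0 replicate 1, 8 without day 0 replicate 2, 5 without day 16 replicate 1 and 9 without day 16 replicate 2. From day 8 to day 16 no member was called in limma (0.602% of tested genes higher, 0.203% lower, 0.804% either). An unadjusted p under 0.05 was reached by 3 members, and the share of all tested genes that did so was not counted.

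The 1343KO calls that held under all alternatives run were those of 3 genes. Mrpl23 rose from 21.4 and 20 FPKM at day 0 to 49.9 and 35.2 at day 8 and 39.9 and 42.9 at day 16 (0.97 ± 0.19 to day 16, adjusted p = 0.00536), with no overlap between day 0 and the later days. Mrpl20 fell from 81.8 and 81.1 to 49.3 and 47.4 and then 44.2 and 48.6 (-0.80 ± 0.11, adjusted p = 0.000637). Mrpl40, a large subunit protein specific to mitochondria, fell from 55.9 and 60.4 to 43.5 and 36.2 and then 36 and 34.9 (-0.70 ± 0.10, adjusted p = 0.000996). Mrps23 had a larger fall to day 8 (-1.17 ± 0.34, adjusted p = 0.0363) that rests on 1343KO day 0 replicate 1, at 116 FPKM against 64.5 in replicate 2, and was lost without that library. It was lost as well without either 1343KO day 8 library and in other alternatives, 9 in all. Of the other calls, Mrps7 (-0.69 at day 8, -0.59 at day 16), Mrpl18 (-0.53 and -0.50), Mrps17 (-0.66 at day 8), Mrpl13 (-0.59 at day 8), Mrps10 (-0.54 at day 16) and Mrps25 (-0.52 at day 16) were lower, each with its call lost in at least 1 alternative. Mrpl14 was higher at both days (0.48 and 0.34) and Mrpl24 at day 8 (0.36), and these calls were lost as well, that of Mrpl14 at day 8 without 1343KO day 0 replicate 2 or day 8 replicate 2.

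The change from day 0 was then compared between the lines in 1 test of the difference. From day 0 to day 8 the change was more positive in 1343KO for 29 members and more negative for 1 (15.6% and 12.7% of tested genes, 28.3% either), with a median difference of 0.56. The 30 calls became 17 without the WT day 8 replicate 1 library and 19 without 1343KO day 8 replicate 1. TPM scaling gave 17 and 2 members, with the split of all genes at 11.1% and 16.1%. From day 0 to day 16 the counts were 40 and 1 (21.7% and 18.2%, 40% either), with a median of 0.74 against 0.08 for all genes. Of the 57 members lower in WT at day 16, 39 were called in this difference and 12 were also lower in 1343KO. The within-line tests and the difference share libraries, so these counts are not independent. Genes picked for a fall in WT are favoured to show such a difference. The matching counts among all tested genes lower in WT were not made.

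**Figure D4:**
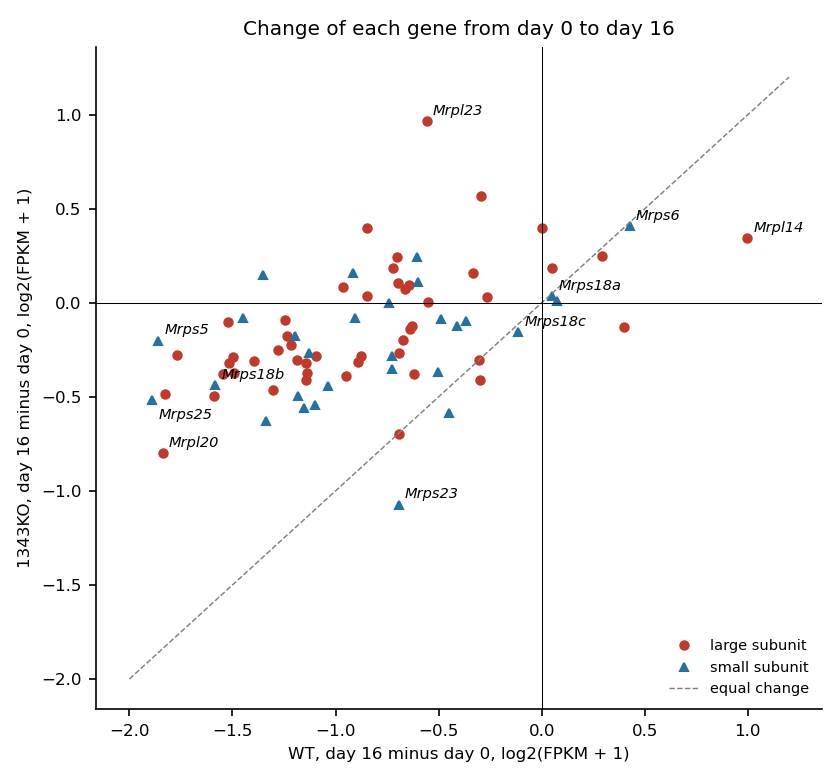
log2(FPKM + 1) at day 16 minus day 0 for each of the 78 genes in WT (horizontal axis) and 1343KO (vertical axis), large subunit as circles and small subunit as triangles; on the dashed line both changes are equal. Most genes lie left of 0 and above the line, Mrpl14 lies right of 0 and below it, and Mrpl23 has the highest 1343KO value at 0.97.

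The largest differences of the change to day 16 were those of Mrps5 (1.66 ± 0.35, adjusted p = 0.00477), Mrpl23 (1.52 ± 0.27, adjusted p = 0.00175) and Mrps28 (1.5 ± 0.23, adjusted p = 0.000726), followed by Mrpl42 (1.49 ± 0.12), Mrpl11 (1.42 ± 0.26), Mrps25 (1.37 ± 0.22), Mrps12 (1.37 ± 0.22) and Mrpl15 (1.34 ± 0.24). Mrpl23 was at 18.3 and 20.7 FPKM in WT and 39.9 and 42.9 in 1343KO at day 16, from 35.2 and 24.1 and from 21.4 and 20 at day 0. Mrpl14 alone was called in the other direction (-0.65 ± 0.15, adjusted p = 0.00668), having gone from 30 and 27.2 to 38.9 and 34.3 FPKM in 1343KO. At day 8 the largest were Mrps24 (1.33 ± 0.20), Mrps18b (1.2 ± 0.15), Mrps36 (1.15 ± 0.27), Mrpl34 (1.15 ± 0.30), Mrps5 (1.13 ± 0.35), Mrps12 (1.08 ± 0.22), Mrpl45 (1.05 ± 0.18) and Mrpl21 (1.05 ± 0.23). The calls of Mrpl34 and Mrps5 at day 8 were lost in 5 and 10 alternatives, that of Mrpl34 without WT day 0 replicate 1, WT day 8 replicate 1, 1343KO day 0 replicate 1 or 1343KO day 8 replicate 1. Of the 41 calls at day 16, 30 held under all alternatives run.

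The median WT fall of the members to day 16 stood beside smaller medians of the cytosolic ribosome and of the respiratory chain. Of 91 cytosolic ribosomal protein genes, 80 were lower in WT at day 16 (median -0.56), and their sum fell to 69.9% of day 0. Of 81 nuclear genes of oxidative phosphorylation (OXPHOS), 41 were lower and 6 higher (median -0.36), and their sum fell to 72.4%. In that comparison 28.5% of all tested genes were lower and 32.7% higher. In 1343KO at day 16 the cytosolic sum was 118% and the OXPHOS sum 96.1% of day 0, against 87.9% for the members, without rescaling between libraries. As a share of all FPKM, the cytosolic genes went in 1343KO from 14.8% and 15% at day 0 to 16.9% and 17.2% at day 16. The OXPHOS genes went from 1.85% and 1.84% to 1.71% and 1.73%. These values describe the groups, and differences between the groups were not tested.

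The genes that work with the mitochondrial ribosome were lower more often than higher in WT at day 16, where 28.5% of all tested genes were lower and 32.7% higher. The examples are the 3 calls with the smallest p of each list. All 5 ribosomal proteins with other names were lower. Ptcd3 (mS39), a small subunit protein, went from 41.8 and 44.1 FPKM to 12.1 and 14 (-1.65 ± 0.14), Gadd45gip1 (mL64) from 24.8 and 20.7 to 9.96 and 8.73 (-1.20 ± 0.13), and Aurkaip1 (mS38) from 68.2 and 56.4 to 24.3 and 38.3 (-1 ± 0.19). Of 13 translation factors 7 were lower and none higher. Tsfm, which recharges the elongation factor Tufm, went from 35.7 and 39.5 to 10.5 and 13.9 (-1.56 ± 0.14), Gfm2, which helps to split the ribosome after a round of translation, from 29.7 and 26.4 to 8.18 and 8.96 (-1.60 ± 0.15), and the elongation factor Gfm1 from 47.2 and 39 to 12.3 and 9.69 (-1.88 ± 0.20). Of 25 assembly and rRNA modification genes 17 were lower and none higher, led by the GTPase Mtg1 (-1.13 ± 0.17), the helicase Dhx30 (-0.89 ± 0.13) and the GTPase Noa1 (-1.42 ± 0.21).

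Of 20 aminoacyl-tRNA synthetase and amidotransferase genes 11 were lower and 2 higher. Yars2 (-1.72 ± 0.16), Sars2 (-1.71 ± 0.16) and Tars2 (-0.93 ± 0.11), which charge tyrosine, serine and threonine tRNA, led the list. The higher genes, named after their values were seen, were Lars2, the leucyl enzyme, from 81.7 and 81.4 to 122 and 134 FPKM (0.65 ± 0.12), and Fars2, whose call was lost in 8 alternatives. Of 15 genes of mitochondrial DNA transcription, copying and RNA handling 9 were lower, led by Pnpt1, an RNA-degrading enzyme (-1.70 ± 0.12), Lrpprc, which stabilises mitochondrial messenger RNA (-1.18 ± 0.10), and Ssbp1, which coats single-stranded mitochondrial DNA (-1.27 ± 0.13). The 1 higher gene was Polg, the mitochondrial DNA polymerase, from 17.6 and 17.8 to 62.3 and 69 at day 8 and 28.6 and 31.9 at day 16 (0.74 ± 0.13 to day 16).

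In 1343KO against WT at day 16, where 28.5% of all tested genes were higher, 4 of the 5 other-name ribosomal proteins, 5 of 13 translation factors, 12 of 25 assembly genes, 9 of 20 synthetase genes and 8 of 15 DNA expression genes were higher. The lists are short, and the share of the translation factors in particular was not far from that of all genes. Polg alone of these lists was lower (-0.47 ± 0.13, adjusted p = 0.0115), a call lost without 1343KO day 16 replicate 2 and without WT day 16 replicate 2. Ptcd3 was at 37 and 35.2 FPKM in 1343KO (1.41 ± 0.14), Tsfm at 24.7 and 23.8 (0.95 ± 0.14), Mtg1 at 12.4 and 10.2 (1.07 ± 0.17) and Sars2 at 9.81 and 10.2 (1.43 ± 0.16). Each of these was above both WT libraries. Pnpt1 was at 23.2 and 28.7 against 8.46 and 9.3 in WT (1.44 ± 0.12). Gadd45gip1, which lies on chromosome 8, was lower in 1343KO at day 0, at 13.8 and 14.5 against 24.8 and 20.7 (adjusted p = 0.0304), a call lost without any 1 of the 4 day 0 libraries or either WT day 8 library.

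The messenger RNAs that the mitochondrial ribosome translates were not lower as a group. The 13 mitochondrially encoded genes summed to 103% of day 0 in WT at day 16, with a median change of 0.04. Of them 5 were called higher and 1 lower, where 32.7% of all tested genes were higher and 28.5% lower. The 3 with the smallest p were higher: mt-Nd6 from 1110 and 1170 FPKM to 1670 and 1510 (0.48 ± 0.06), mt-Co1 from 5520 and 5690 to 8530 and 7220 (0.49 ± 0.09) and mt-Nd5 from 1040 and 1120 to 1530 and 1340 (0.41 ± 0.09). They encode subunits of complex I, cytochrome oxidase and complex I. The 1 lower gene was mt-Atp6, a subunit of ATP synthase, from 2820 and 2930 to 2440 and 2050 (-0.36 ± 0.08, adjusted p = 0.00442). In WT at day 8 against day 0 the calls went both ways. There mt-Co1, mt-Nd6, mt-Nd4l, mt-Nd5 and mt-Nd4 were higher, and mt-Nd3, mt-Atp6, mt-Atp8, mt-Nd1 and mt-Co3 were lower. Of all tested genes 26.8% were higher and 24.5% lower at day 8. These RNAs were read from a poly(A) selection, so their level also depends on their tails.

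**Figure D5:**
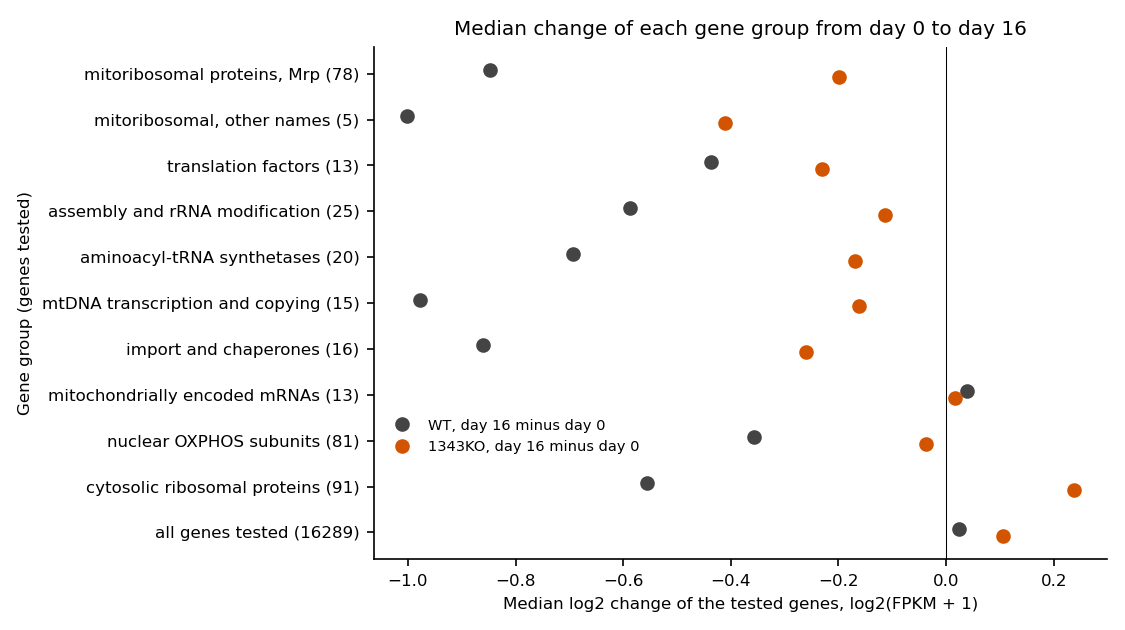
Median log2 change from day 0 to day 16 of the tested genes of 11 gene groups in WT (grey) and 1343KO (orange), with the number of genes in brackets. The mitochondrial ribosomal proteins had medians of -0.85 in WT and -0.20 in 1343KO, and the mitochondrially encoded genes lay near 0 in both lines.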

How the data were processed

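Poly(A) RNA of 12 libraries was measured. The authors deposited 1 table of FPKM for all libraries. Cufflinks 2.1.1 and the build GRCm38 (mm10) are named in the submitters' processing notes; for the aligner, the annotation and the strand setting the answer is not given in the sources used here. FPKM depends on how reads of overlapping or near-identical genes are split, and on the RNA taken by other genes: 33 members share exonic bases with another gene in GENCODE M21. Coordinates were written counting from 1, and matched GENCODE M21 for 73 members.

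The 16289 genes that reached 1 FPKM in 2 or more libraries were fitted as log2(FPKM + 1) with limma 3.58.1 in R 4.3.3, with 1 mean per group over all 12 libraries, a variance trend and residual df of 6. For each of 11 contrasts two-sided p were adjusted by Benjamini-Hochberg over all genes. Fold changes on this scale understate those of low genes. The smallest p of an exact permutation test of 2 libraries against 2 is 0.333, so every call uses a spread shared across genes. On simulated data for the day 0 contrast over 16289 genes, the fit recovered 71% of simulated 2-fold changes, 97% of 4-fold changes, and 4.55% of its calls were false. The 200 changed genes were drawn only from genes well above the level filter, and the noise was normal and independent between libraries. Contrasts with embryoid bodies, where far more genes were called, were not simulated.

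Depth was estimated, since the table holds no counts, from single-transcript genes of at least 1500 nt, assuming a fragment of 200 nt, where 86.1% to 89.0% of low values were within 5% of whole fragments; no count test was run on it.

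Members, gene lists and named genes were chosen with earlier results of these data known. The rule for named members took the 10 most abundant, the 8 largest called changes and the calls against the majority in each contrast, those on chromosome 8, the 5 that changed least in WT to day 16, and related members. From each pathway list it took the 3 calls with the smallest p. Alternatives were another pseudocount (0.1), no low-value filter, a minimum mean of 5 FPKM, TPM and median-of-ratios scaling, a replicate block, each day fitted alone and each library left out. Promoters were matched by symbol in RefSeq for 69 members; Mrpl4, Mrpl13, Mrpl15, Mrpl19, Mrpl38, Mrpl54, Mrps28, Mrps34 and Mrps35 had no entry. The levels of 1 further marker list are not reported here.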

Additional observations from a re-analysis of the deposited data

Results flagged for a closer look

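The change from day 0 differed between WT and 1343KO by the test of the difference itself (limma, adjusted p under 0.05) for 30 members at day 8 and 41 at day 16. Among these, the change to day 8 was more positive in 1343KO by 1.33 for Mrps24, 1.2 for Mrps18b and 1.15 for Mrps36 on the log2 scale, and the change to day 16 by 1.66 for Mrps5, 1.52 for Mrpl23 and 1.5 for Mrps28. Mrpl14 differed in the other direction, by -0.53 at day 8 and -0.65 at day 16. Its day 8 call was lost without 1343KO day 0 replicate 1, without WT day 0 replicate 1 and without any 1 of the 4 day 8 libraries.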

How the results depend on the processing

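With day 0 libraries alone, with no filter on low values and with a replicate block, the 1 member called between the lines at day 0 became 0, and leaving out 1 library gave 0 to 1. The 15 calls in 1343KO from day 0 to day 16 became 27 with median-of-ratios scaling and 8 with no filter, and 5 to 15 with 1 library left out; those from day 0 to day 8 became 6 to 17. The 30 calls in the difference of changes to day 8 became 19 with TPM scaling, 18 with no filter, and 17 to 29 with 1 library left out, and the 14 calls in WT from day 8 to day 16 became 8 to 14. Other counts of members stayed within 1.5 times their value: with 1 library left out, 49 to 60 for WT at day 16 against day 0, 45 to 57 for WT at day 8, 39 to 49 for 1343KO against WT at day 16, 31 to 44 at day 8 and 33 to 41 for the difference of changes to day 16. Where a library was left out, the single library of that group was taken to vary like the other groups. Among called genes of the members and lists, the sign turned only for mt-Nd6, 1343KO against WT at day 8. Its call at 0.18 was lost in 10 alternatives (-0.0178 with TPM scaling). Sign changes of uncalled genes were not counted. With 1 library left out, the median of the members ran from -0.05 to 0.03 between the lines at day 0. From day 8 to day 16 in 1343KO it ran from -0.06 to 0.07. The cause of these shifts was not tested. Same-numbered libraries did not deviate together (correlations of -0.04 to 0.04 over 15 pairs of groups, none over 0.1). That check cannot show whether such libraries came from the same culture or differentiation run. The replicate block left 59 calls in WT at day 16 against day 0 and 50 for 1343KO against WT at day 16. Each group had 2 libraries with estimated depths of 4820000 to 7920000 fragments, and how well changes under 2-fold are detected was not tested.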

Other observations

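Of 12 tested regulators of mitochondrial genes, 8 were lower in WT at day 16 than at day 0 and none higher. Of all tested genes 28.5% were lower and 32.7% higher in that comparison. The 3 with the smallest p were Esrrb, a nuclear receptor that is also a pluripotency gene (-4.89 ± 0.12 in limma), Myc, which binds the E-box (-2.60 ± 0.10), and its relative Mycn (-1.75 ± 0.09). Myc fell in both lines, from 46.7 and 47.8 FPKM to 6.95 and 6.97 in WT and from 36.4 and 37.4 to 11.9 and 10.1 in 1343KO (-1.67 ± 0.10). Nrf1, Gabpa and Yy1 are given as well because their motifs were searched above. Nrf1 went from 31 and 36.9 to 12.5 and 8.3 in WT (-1.64 ± 0.24, adjusted p = 0.000276), and in 1343KO it was at 34.2 and 33.2 at day 0 and 42.6 and 26.6 at day 16. Gabpa went from 48.8 and 50.4 to 20.4 and 19.4 in WT (-1.28 ± 0.09) and from 50 and 50.5 to 36.3 and 30.9 in 1343KO (-0.57 ± 0.09). Yy1 changed less, by -0.31 ± 0.07 in WT (adjusted p = 0.00376 in limma) and, without a call, by -0.02 ± 0.07 in 1343KO. In 1343KO at day 16 against day 0, Myc, Mycn, Gabpa and Esrrb were called lower. Mycl, a further relative of Myc, was called higher there (1.74 ± 0.22, adjusted p = 0.000476 in limma). Of all tested genes 8.6% were lower and 18.2% higher in 1343KO.

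Of 16 import, chaperone and related genes 14 were lower in WT at day 16 and none higher. Hspd1, the chaperonin that folds imported proteins, went from 482 and 497 FPKM to 117 and 114 (-2.07 ± 0.05), and in 1343KO from 471 and 438 to 290 and 274 (-0.68 ± 0.05). Its partner Hspe1 went from 491 and 483 to 144 and 145 in WT (-1.75 ± 0.07), and Hspa9, which pulls proteins into the matrix, from 249 and 257 to 94.1 and 94.9 (-1.41 ± 0.05).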
